A study of Mus musculus with 12 samples.

Results

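The genes described here are 38 antiviral genes of the mouse that are known to be switched on by type I interferon. They were chosen by name, and each symbol was matched through its Ensembl identifier to a row of the deposited count table. All 38 were found among the 55891 identifiers of the table, and all 38 were among the 13525 genes that passed the filter on low counts and were tested.

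The study compares macrophages with and without Ptprz1, which encodes a tyrosine phosphatase of the receptor type. RNA was sequenced from bone marrow derived macrophages (BMDM), which are grown from bone marrow cells, here over 6 days in 10 ng/mL M-CSF, the growth factor of the macrophage lineage. The 6 groups were KO and WT cells given 100 ng/mL LPS, a bacterial lipopolysaccharide, with 10 ng/mL IFNγ for 24 h, KO and WT cells given 20 ng/mL IL-4 for 24 h, and KO and WT cells without a stimulus (control). Each group had 2 libraries, 12 in all. The labels name the strain B6.129-Ptprz1tm1Nmo for every sample, WT included, while the titles of WT samples begin with B6. They do not say whether the libraries of a group came from separate mice or separate cultures, so the p-values reflect no more than the spread between these libraries, and that spread may be technical. LPS and IFNγ were given together, so their effects cannot be told apart, and there was no group given type I interferon.

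Type I interferons, IFN-β and the IFN-α family, are secreted when a cell senses nucleic acids of a virus or bacterial products such as LPS. They bind the receptor made of IFNAR1 and IFNAR2, and the kinases JAK1 and TYK2 then activate transcription factors, among them STAT2 with IRF9, that bind a promoter sequence called the interferon-stimulated response element (ISRE). IFNγ, the type II interferon, acts through its own receptor and a promoter sequence called the gamma-activated site (GAS). The products of the genes switched on this way bind or degrade foreign RNA, block translation, tag proteins with the ubiquitin-like protein ISG15, stop viruses at membranes, and sense further nucleic acid.

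The promoter sequences of 28 of the 38 genes were in the RefSeq table used here (build GRCm38.p6), as 35 windows of 300 bases that ran from 250 bases before to 50 bases after a start site. The core of the ISRE, searched on both strands as GAAA, any 2 bases and GAAA again, was found in 15 of the 35 windows (42.9%), against 3.44% of the 32851 windows of all genes in the table. A window with at least 2 such matches was found in 22.9% of the members' windows and in 0.225% of all windows. The GAS, searched as TTCNNNGAA on both strands, was in 22.9% of the members' windows and in 8.30% of all windows. Counted by gene, 14 of the 28 had an ISRE core. Of the 24 matches, 19 lay before the start site. The stretches below, all upstream of the start, show the different arrangements, with each ISRE core or its reverse complement in capitals, 5′ to 3′ on the strand of the gene. Isg15 has 3 overlapping cores, Ifit1 and Ifit3 have 2 cores apart from each other, Oas1a and Bst2 have 2 overlapping cores, and Rsad2 has 1.
Isg15, minus strand, chr4:156200855-156200916: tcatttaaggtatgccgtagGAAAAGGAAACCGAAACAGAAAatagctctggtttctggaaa
Ifit1, plus strand, chr19:34640765-34640833: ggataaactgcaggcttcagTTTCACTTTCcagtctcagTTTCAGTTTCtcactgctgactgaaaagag
Ifit3, plus strand, chr19:34583353-34583436: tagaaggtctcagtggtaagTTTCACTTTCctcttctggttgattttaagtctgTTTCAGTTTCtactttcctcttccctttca
Oas1a, minus strand, chr5:120907526-120907565: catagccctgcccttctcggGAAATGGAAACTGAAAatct
Bst2, minus strand, chr8:71537567-71537622: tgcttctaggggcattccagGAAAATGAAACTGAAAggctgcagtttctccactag
Rsad2, minus strand, chr12:26456543-26456592: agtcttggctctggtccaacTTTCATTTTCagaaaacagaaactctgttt
The Ifit3b promoter (chr19:34607749-34607832) was identical to that of Ifit3 over the 84 bases shown, with 0 differing, and Oas1g was identical to Oas1a over 38 of the bases shown. In Bst2 a GAS overlapped the first core. A match says only that these letters occur in the window. A missing match says only that this exact pattern is absent from the window, not that the gene lacks an ISRE. Adar, Cmpk2, Dtx3l, Herc6, Ifi35, Ifi44, Ifit2, Isg20, Oasl1, Oasl2, Phf11d, Samd9l, Trim25 and Xaf1 had windows without a core.

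**Figure D1:**
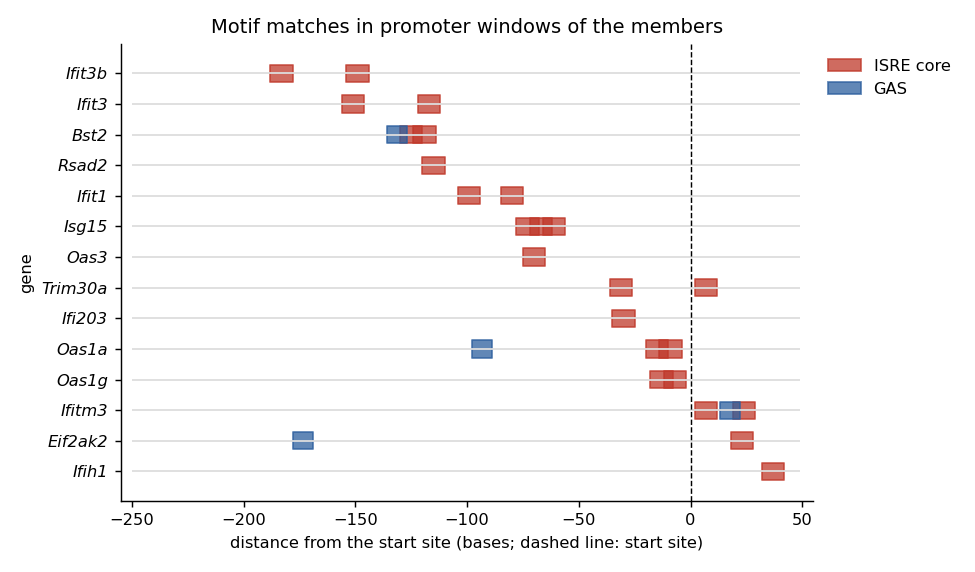
Motif matches in the promoter windows of the 14 members with an ISRE core. The x axis is the distance in bases from the start site (dashed line), each grey line is a gene's window of 300 bases, red blocks are ISRE cores and blue blocks are GAS matches. The 2 cores of Trim30a come from windows of different start sites. Of the 24 cores, 19 lie left of the dashed line.

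Library totals ran from 13665607 to 19555600 counts, and 3 counts, the limit used for a gene without counts, correspond to 0.138 to 0.290 CPM (counts scaled to the library size, which was itself scaled by TMM). Ptprz1 itself had 0 counts in 11 of the 12 libraries and 7 counts in WT IL-4 library 2, so its RNA cannot check the knockout. All 6 KO libraries had Y-linked transcripts and no Xist, all 6 WT libraries had Xist and no Y-linked transcripts, and sex and genotype therefore cannot be told apart. The 10 macrophage markers summed to between 9079.7 and 22097 CPM in the libraries. Markers of conventional dendritic cells summed to at most 2.16 CPM, of B cells to at most 1.62 CPM, and of T and NK cells to at most 1.46 CPM, with Cd3e and Ncr1 at 0 throughout. The 7 markers of plasmacytoid dendritic cells, some of which macrophages also express, summed to between 63.4 and 157 CPM, with Klk1 at 0. Stromal markers summed to between 45.1 and 1349 CPM. In IL-4 libraries they summed to 336 and 1349 CPM in KO and 51.2 and 201 CPM in WT cells. Granulocyte markers summed to between 0.828 and 221 CPM, with 12.6 and 1.42 CPM in KO and 2.73 and 13.3 CPM in WT IL-4 libraries. KO control library 1 stood apart from the other 3 control libraries in the interferon-stimulated genes. Most medians, signs and member counts by adjusted p that use it are also given without it. Counts by unadjusted p, counts of libraries that do not overlap and single KO fold changes below use both KO control libraries unless said otherwise. Coding sequences of Ifit3 and Ifit3b were identical at 1198 of 1209 bases (99.1%) and those of Oas1a and Oas1g at 96.7%, so reads may be split between the members of these pairs and their separate counts are uncertain.

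After LPS+IFNγ, all 38 genes rose in both genotypes. With edgeR's quasi-likelihood F test and Benjamini-Hochberg adjusted p-values, 38 of 38 were called higher in KO cells and 38 of 38 in WT cells at an adjusted p below 0.05, where 27.2% of all tested genes were called higher in KO cells and 27.4% in WT cells. The median log2 fold change of the 38 was 4.18 in KO and 5.29 in WT cells, against −0.01 in KO and −0.05 in WT cells over all tested genes. For every member, each of the 4 LPS+IFNγ libraries lay above each of the 8 other libraries. Among all tested genes, the LPS+IFNγ libraries lay above the control libraries for 37.0% in KO and 40.7% in WT cells. Together the 38 genes took 2.97% to 3.58% of all counts in the LPS+IFNγ libraries and 0.0845% to 0.285% in the others. In bulk RNA, fewer cells of a type and less RNA per cell cannot be told apart. With total counts in place of TMM scaling, the median over all genes shifted to −0.51 in KO and −0.55 in WT cells, and the members' medians were 3.67 in KO and 4.80 in WT cells.

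**Figure D2:**
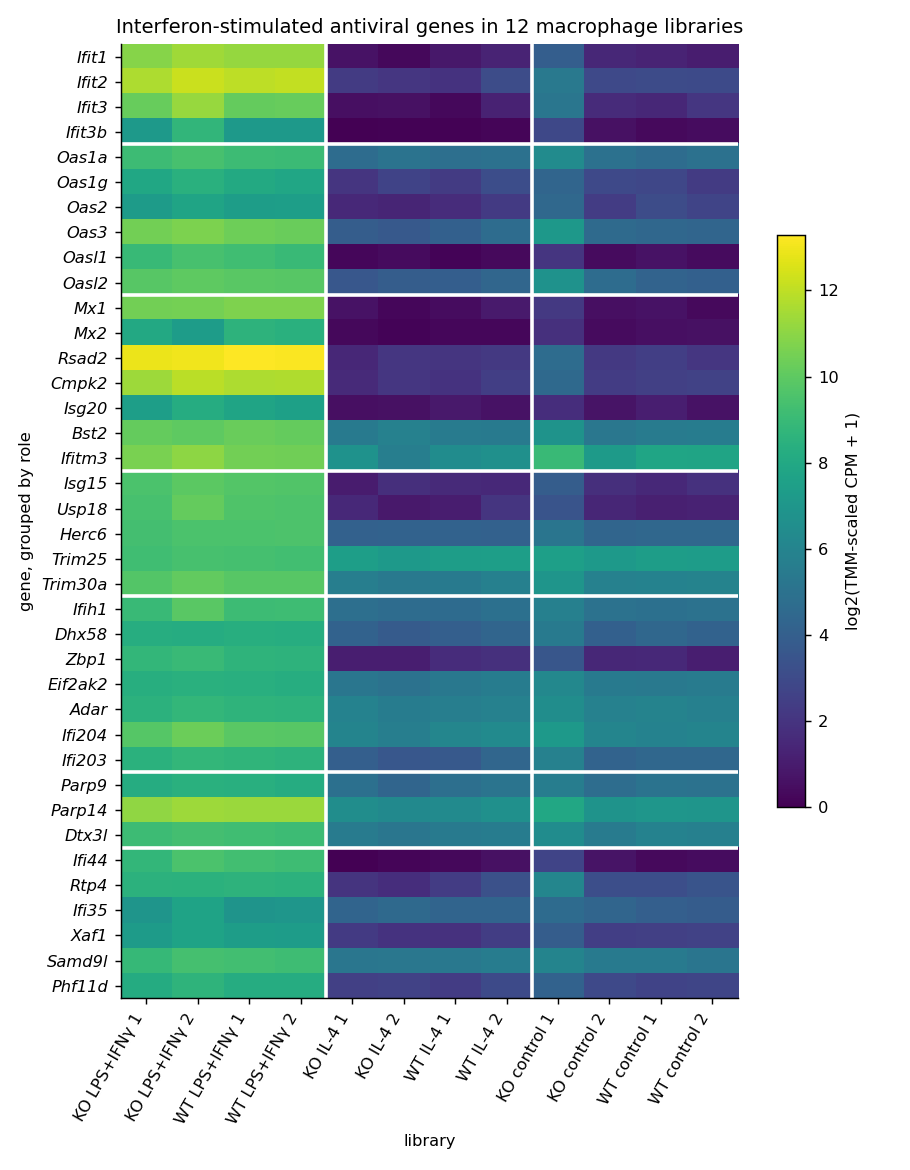
Level of each of the 38 genes (rows, grouped by role) in each of the 12 libraries (columns), as log2 of TMM-scaled CPM plus 1. White lines part the treatments and the role groups. The 4 LPS+IFNγ columns are brightest in every row, and among the 8 other columns KO control library 1 is highest in all 38 rows.

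The response spanned a wide range of sizes. In WT cells 21 genes rose over 32-fold, 13 between 8-fold and 32-fold, 3 between 4-fold and 8-fold, and 1 under 4-fold. In KO cells the same classes held 14, 19, 4 and 1 genes, and with KO control library 1 left out they held 22, 13, 3 and 0. By role, the median log2 fold change was highest for the antiviral GTPases, enzymes and membrane proteins (7.30 in KO and 9.39 in WT cells, 7 genes) and the IFIT proteins (6.98 in KO and 9.06 in WT cells, 4 genes). It was 4.66 in KO and 5.19 in WT cells for the ISG15 system and TRIM ligases (5 genes), and 4.08 in KO and 5.70 in WT cells for the OAS family (6 genes). For the 7 nucleic acid sensors and kinases it was 3.40 in KO and 4.05 in WT cells, for the 3 PARP and DTX3L genes 3.17 in KO and 3.35 in WT cells, and for the 6 other members 3.85 in KO and 5.23 in WT cells. The KO medians without KO control library 1 were 9.47 for the GTPases, enzymes and membrane proteins, 9.49 for the IFIT proteins, 5.14 for the ISG15 system and TRIM ligases and 5.48 for the OAS family, so that the first 2 changed places in KO cells. They were then 4.28 for the sensors and kinases, 3.72 for the PARP and DTX3L genes and 5.40 for the other members. Mx1 had the highest fold change in both genotypes and Trim25 the lowest. Several of the highest folds rest on very few control counts: in the WT control libraries Mx1 had 12 and 5 counts, Ifi44 and Ifit3b each had 5 and 7, and Oasl1 had 12 and 6. Members with an ISRE core in the promoter window had a median log2 fold change of 4.19 in KO and 5.14 in WT cells (14 genes), and those without had 4.46 in KO and 5.48 in WT cells (14 genes). With KO control library 1 left out, the KO medians were 5.16 with a core and 5.31 without one.

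The IFIT proteins bind foreign RNA and hold back its translation. Their 4 genes lie together at chr19:34550694-34650009 (gene coordinates here and below are of build GRCm38). Ifit1, which recognises capped RNA without the methyl marks of host mRNA, was at 1891 and 2703 CPM in KO LPS+IFNγ libraries, against 14.7 and 1.75 CPM in KO control libraries. In WT cells it was at 2358 and 2374 CPM after LPS+IFNγ, against 1.51 and 1.08 CPM in control. The stimulated libraries lay within 1.43-fold of each other in KO cells and nearly coincided in WT cells, while the KO control libraries were 8.37-fold apart. The log2 fold change was 8.12 ± 0.84 in KO (SE, adjusted p = 3.82e-05) and 10.83 ± 0.97 in WT cells (adjusted p = 1.41e-05). Ifit2, which takes part in antiviral cell death, was at 3231 and 4809 CPM in KO LPS+IFNγ libraries, against 40.0 and 6.63 CPM in KO control. WT cells had 3977 and 4276 CPM of Ifit2 after LPS+IFNγ, against 7.24 and 6.79 CPM in control, with log2 fold changes of 7.43 ± 0.83 in KO and 9.20 ± 0.90 in WT cells. Ifit3, a binding partner of Ifit1, and its near-identical copy Ifit3b rose in both genotypes. On the log2 scale the change of Ifit3 was 6.54 ± 1.1 in KO and 8.83 ± 1.25 in WT cells, and that of Ifit3b 6.40 ± 0.83 in KO and 8.92 ± 1.06 in WT cells. Both were higher in KO LPS+IFNγ library 2 than in the other 3 stimulated libraries: Ifit3 was at 1173 and 2421 CPM in KO and 1132 and 1189 CPM in WT LPS+IFNγ libraries.

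The OAS enzymes make oligoadenylates that activate RNase L when they meet double-stranded RNA. Oas1a, Oas1g, Oas2 and Oas3 lie together at chr5:120730333-120907521, and the related Oasl1 and Oasl2 at chr5:114896936-114937915. Oas3, the family's long member with several enzyme-like units, was at 1391 and 1649 CPM in KO LPS+IFNγ libraries, against 133 and 23.2 CPM in KO control. In WT cells Oas3 had 1327 and 1226 CPM after LPS+IFNγ, against 20.8 and 19.5 CPM in control. It rose by 4.28 ± 0.66 in KO and 5.98 ± 0.72 in WT cells (log2, adjusted p = 4.63e-04 in KO and 9.11e-05 in WT). Oasl1, known in the mouse to hold back translation of the transcription factor IRF7, had the family's highest fold changes, 8.38 ± 0.66 in KO and 10.26 ± 0.76 in WT cells. Its levels were 495 and 677 CPM in KO and 590.4 and 506 CPM in WT LPS+IFNγ libraries, against 3.18 and 0.292 CPM in KO and 0.583 and 0.295 CPM in WT control libraries. Oas1a, Oas1g, Oas2 and Oasl2 rose by 3.44 to 4.50 in KO and by 4.30 to 5.79 in WT cells. The smallest change of the family was that of Oas1a, at 549 and 682 CPM in KO and 553 and 534 CPM in WT LPS+IFNγ libraries, against 82.7 and 30.4 CPM in KO and 24.8 and 30.4 CPM in WT control libraries. Oas2 was at 158 and 214 CPM in KO and 169.9 and 173 CPM in WT LPS+IFNγ libraries, against 21.8 and 4.09 CPM in KO and 7.63 and 5.71 CPM in WT control libraries. In both genes the WT control libraries stood together and KO control library 1 stood above them.

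A group of GTPases, enzymes and membrane proteins acts on viruses directly. Rsad2 (viperin), an enzyme that makes a chain-terminating nucleotide, and Cmpk2, a mitochondrial nucleotide kinase, are neighbours at chr12:26442746-26479837. Rsad2 was at 7537 and 8353 CPM in KO LPS+IFNγ libraries, against 24.8 and 3.56 CPM in KO control. WT cells had 10021 and 9454 CPM of Rsad2 after LPS+IFNγ, against 4.52 and 3.35 CPM in control. These levels correspond to log2 fold changes of 9.13 ± 0.86 in KO and 11.27 ± 0.94 in WT cells (adjusted p = 2.07e-05 in KO and 9.14e-06 in WT). Cmpk2 was at 2599 and 3855 CPM in KO and 3254 and 3371 CPM in WT LPS+IFNγ libraries, against 22.2 and 4.09 CPM in KO and 4.71 and 5.17 CPM in WT control libraries, and rose by 7.94 ± 0.75 in KO and 9.39 ± 0.80 in WT cells. Mx1 and Mx2, dynamin-like GTPases, are neighbours at chr16:97447035-97560900, and common laboratory strains such as C57BL/6 are known to carry defective alleles of both. Mx1 was at 1398 and 1443 CPM in KO LPS+IFNγ libraries, against 3.59 and 0.438 CPM in KO control. WT libraries had 1709.5 and 1712 CPM of Mx1 after LPS+IFNγ, against 0.583 and 0.246 CPM in control. The KO fold change of Mx1 was 9.44 ± 0.73 and the WT fold change 11.98 ± 0.84 (log2, adjusted p = 6.52e-06 in KO and 3.44e-06 in WT), and Mx2 rose by 7.16 ± 0.58 in KO and 9.60 ± 0.67 in WT cells. Isg20, an RNA exonuclease, was at 174 and 296 CPM in KO and 213 and 189.9 CPM in WT LPS+IFNγ libraries, against 2.30 and 0.633 CPM in KO and 1.17 and 0.591 CPM in WT control libraries. It rose by 7.30 ± 0.48 in KO and 7.83 ± 0.51 in WT cells.

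Bst2 (tetherin), which holds budding virus at the cell surface, and Ifitm3, which stops viral fusion in endosomes, had smaller fold changes. Bst2 was at 1147 and 1037 CPM in KO and 1209.8 and 1139.5 CPM in WT LPS+IFNγ libraries, against 112 and 37.6 CPM in KO and 45.9 and 46.6 CPM in WT control libraries, and rose by 3.86 ± 0.42 in KO and 4.67 ± 0.44 in WT cells. Ifitm3 was at 1592 and 2131 CPM in KO LPS+IFNγ libraries, against 510.0 and 148 CPM in KO control. In WT cells Ifitm3 had 1420.4 and 1352 CPM after LPS+IFNγ, against 220.2 and 217 CPM in control. It rose by 2.50 ± 0.52 in KO and 2.66 ± 0.52 in WT cells, with the largest adjusted p of the WT comparison (0.00191).

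The ISG15 system attaches and removes a ubiquitin-like tag. Isg15, the tag, was at 737 and 995 CPM in KO LPS+IFNγ libraries, against 13.9 and 2.48 CPM in KO control. WT cells had 839.6 and 835 CPM of Isg15 after LPS+IFNγ, against 1.94 and 2.76 CPM in control. The log2 fold changes of Isg15 were 6.72 ± 0.69 in KO and 8.47 ± 0.76 in WT cells (adjusted p = 3.49e-05 in KO and 1.45e-05 in WT). Usp18, which removes ISG15 and also restrains the type I interferon receptor, was at 682 and 1149 CPM in KO and 791 and 777 CPM in WT LPS+IFNγ libraries, against 9.90 and 1.66 CPM in KO and 1.21 and 1.43 CPM in WT control libraries, and rose by 7.30 ± 0.76 in KO and 9.20 ± 0.86 in WT cells. Herc6, the mouse ligase that attaches ISG15, was at 637 and 736 CPM in KO and 742 and 763 CPM in WT LPS+IFNγ libraries, against 34.7 and 19.4 CPM in KO and 20.5 and 20.7 CPM in WT control libraries. Herc6 rose by 4.66 ± 0.25 in KO and 5.19 ± 0.25 in WT cells and had the smallest adjusted p of the 38 in both genotypes (8.72e-07 in KO and 5.40e-07 in WT). Trim25, a ubiquitin ligase that acts on the RNA sensor RIG-I, changed least. It was at 586 and 689 CPM in KO and 666 and 618 CPM in WT LPS+IFNγ libraries, against 181 and 145 CPM in KO and 169 and 163 CPM in WT control libraries, a log2 fold change of 1.96 ± 0.15 in KO and 1.95 ± 0.15 in WT cells. Trim30a, a mouse TRIM protein that limits Toll-like receptor signalling, rose by 3.44 ± 0.33 in KO and 3.93 ± 0.34 in WT cells.

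Among the nucleic acid sensors and effectors, Zbp1, a sensor of Z-form nucleic acids that can start necroptosis, had the highest fold changes. Zbp1 was at 439 and 523 CPM in KO LPS+IFNγ libraries, against 11 and 1.80 CPM in KO control, and at 404 and 382 CPM in WT LPS+IFNγ libraries, against 1.94 and 1.18 CPM in WT control. The log2 fold changes of Zbp1 were 6.23 ± 0.62 in KO and 7.97 ± 0.70 in WT cells. Ifih1 (MDA5), a sensor of long double-stranded RNA, was at 507 and 949 CPM in KO and 557 and 566 CPM in WT LPS+IFNγ libraries, against 53.7 and 31.0 CPM in KO and 28.9 and 30.7 CPM in WT control libraries. Ifih1 rose by 4.10 ± 0.33 in KO and 4.24 ± 0.34 in WT cells, and its relative Dhx58 (LGP2) by 3.40 ± 0.38 in KO and 4.05 ± 0.39 in WT cells. Ifi204 and Ifi203, members of the PYHIN family of DNA-binding proteins at chr1:173747293-173942672, rose in both genotypes. The change of Ifi204 was 3.33 ± 0.34 in KO and 3.93 ± 0.35 in WT cells, and that of Ifi203 3.44 ± 0.46 in KO and 4.25 ± 0.48 in WT cells. Eif2ak2 (PKR), the kinase that stops translation on double-stranded RNA, and Adar, which edits adenosines in such RNA, had the smallest changes of this group. Eif2ak2 was at 316 and 349 CPM in KO and 335 and 314 CPM in WT LPS+IFNγ libraries, against 73.7 and 43.4 CPM in KO and 40.9 and 45.1 CPM in WT control libraries. It rose by 2.51 ± 0.23 in KO and 2.91 ± 0.23 in WT cells, and Adar by 2.47 ± 0.21 in KO and 2.76 ± 0.22 in WT cells.

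Parp14, an ADP-ribosyltransferase, and Parp9 and Dtx3l, which form a complex of a ubiquitin ligase with its ADP-ribosyltransferase partner, lie together at chr16:35832874-35972605. Parp14 was at 2200.1 and 2623 CPM in KO and 2493 and 2466 CPM in WT LPS+IFNγ libraries, against 254 and 111 CPM in KO and 124 and 122 CPM in WT control libraries. The log2 fold changes of these neighbours were 3.73 ± 0.34 in KO and 4.33 ± 0.35 in WT cells for Parp14, 3.09 ± 0.30 in KO and 3.32 ± 0.30 in WT cells for Parp9, and 3.17 ± 0.27 in KO and 3.35 ± 0.27 in WT cells for Dtx3l. Of the other members, Ifi44 rose by 7.56 ± 0.72 in KO and 10.93 ± 0.90 in WT cells. Its levels were 450.2 and 728 CPM in KO and 606 and 569 CPM in WT LPS+IFNγ libraries, against 5.52 and 0.633 CPM in KO and 0.243 and 0.345 CPM in WT control libraries. Rtp4, a receptor transport protein that is itself induced by interferon, rose by 3.25 ± 0.74 in KO cells, with the largest adjusted p of the KO comparison (0.0046), and by 5.39 ± 0.83 in WT cells. Phf11d, a PHD finger protein, rose by 4.85 ± 0.41 in KO and 5.76 ± 0.43 in WT cells. Xaf1, a partner of the apoptosis inhibitor XIAP, rose by 4.26 ± 0.44 in KO and 5.07 ± 0.47 in WT cells, and Samd9l, a restriction factor of poxviruses, by 3.44 ± 0.22 in KO and 3.95 ± 0.23 in WT cells. Ifi35 rose by 2.91 ± 0.25 in KO and 3.11 ± 0.25 in WT cells.

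The fold change was smaller in KO than in WT cells for 37 of the 38 genes, Trim25 being the exception, and this order depended on KO control library 1. Without it, 38 of 38 were still called in KO cells, the median was 5.38, and 25 of the 38 fold changes were above those of WT cells. Leaving it out moved the KO value by 0.16 (Trim25) to 3.20 (Ifit3), with a median of 1.1, and brought 32 of the 38 closer to the WT value. The KO value without it was 11.64 for Mx1, 11.12 for Rsad2, 10.35 for Ifit1, 10.93 for Oasl1 and 8.44 for Isg15 on the log2 scale. In the test of the difference between the KO and WT responses (the interaction), 0 members and 0.0% of all genes were called by edgeR, and DESeq2 called 0. By unadjusted p under 0.05, 6 members were lower and 0 higher, against 1.49% and 2.03% of all tested genes. The smallest p-values were for Ifi44 (−3.37 ± 1.15, adjusted p = 0.991), Oasl2 (−1.92 ± 0.72), Mx2 (−2.43 ± 0.91) and Ifit1 (−2.71 ± 1.01). The interaction was negative in 37 of 38, with a median of −0.85, and with KO control library 1 left out it was positive in 25 and negative in 13, with a median of 0.08. With KO control library 2 left out in its place, the values were −2.65 for Oasl2 and −3.57 for Ifit1.

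**Figure D3:**
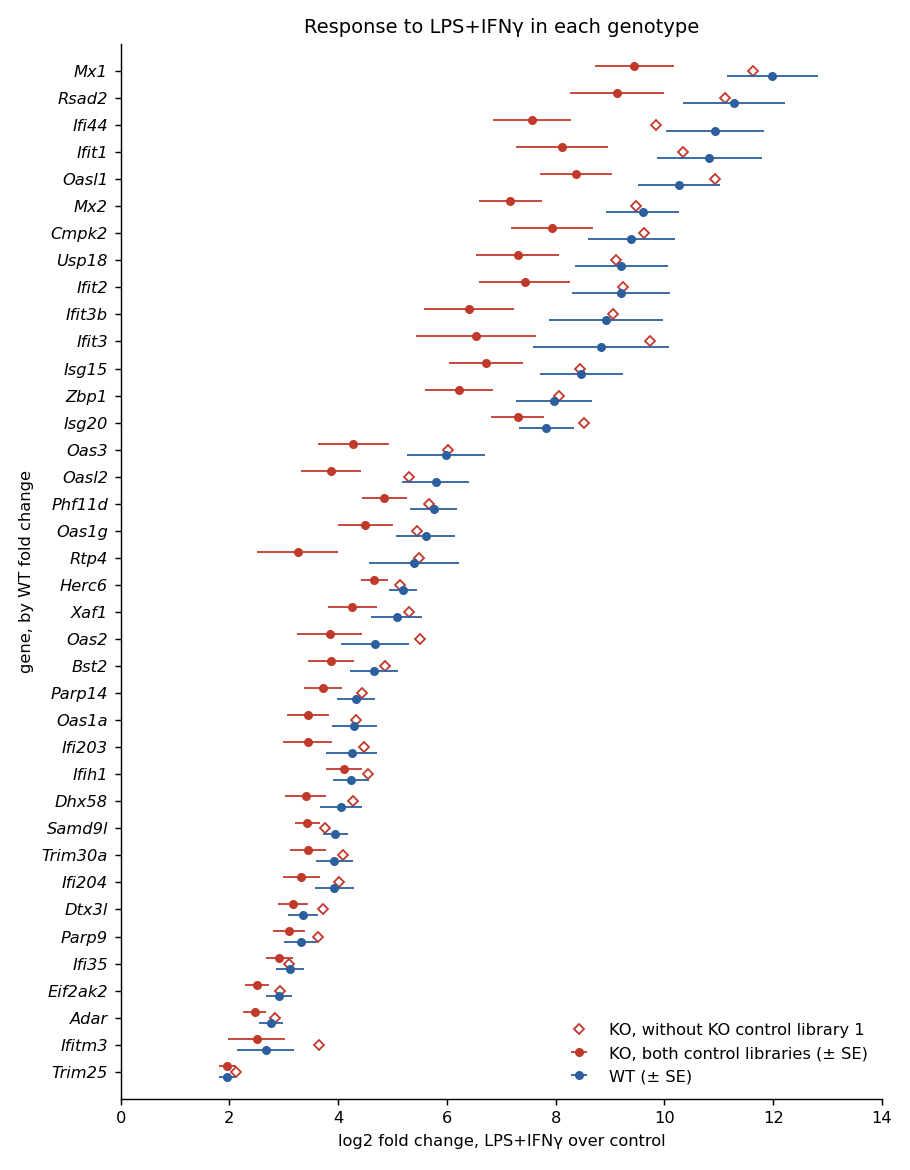
Log2 fold change of LPS+IFNγ over control for each member, in KO cells (red, filled, ± SE), in WT cells (blue, ± SE) and in KO cells without KO control library 1 (open diamonds). Genes are ordered by the WT value. Red points lie left of blue ones in 37 of 38 rows, and 25 of the open diamonds lie right of the blue points.

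Genes that act before or beside the members were counted in the same fit, where 27.2% of all tested genes were called higher and 26.1% lower in KO cells, and 27.4% higher and 27.0% lower in WT cells. Of the 17 type I interferon genes, 0 passed the filter on low counts. Ifnb1, which encodes IFN-β, had 5 and 5 counts in KO and 2 and 9 counts in WT LPS+IFNγ libraries and 0 in the other 8 libraries, and Ifnz had 2 counts in KO LPS+IFNγ library 2 and 1 count in WT LPS+IFNγ library 1. The rest were at 0 in all 12 libraries, at 24 h after the stimulus. Of the 10 interferon receptor and signal transducer genes, 9 rose and 1 fell in both genotypes. Stat2 rose by 4.05 ± 0.31 in KO and 4.62 ± 0.32 in WT cells. Ifngr1, a chain of the IFNγ receptor and the gene that fell, changed by −1.19 ± 0.15 in KO and −0.96 ± 0.15 in WT cells. Of 18 sensors and inducers upstream of interferon, 11 rose and 0 fell in both genotypes, with Irf7, the transcription factor that amplifies type I interferon production, at 6.72 ± 0.87 in KO and 8.61 ± 0.96 in WT cells. Of 14 negative regulators, 8 rose and 1 fell in KO and 9 rose and 2 fell in WT cells. Socs1, an inhibitor of JAK kinases, rose by 7.12 ± 0.42 in KO and 6.71 ± 0.41 in WT cells. Of 46 interferon-stimulated genes outside the members, 45 rose in each genotype, the exceptions being Ifi27l2a in KO (1.79 ± 0.69, adjusted p = 0.0526) and Ifitm2 in WT cells (0.49 ± 0.38, adjusted p = 0.299). These exceptions and Ifngr1 were named after their values were seen. Leaving out KO control library 1, a setting chosen for these lists after the data were seen, left 1 control library in the KO group. The KO log2 fold changes without it were 8.80 for Irf7, 4.62 for Stat2, 7.98 for Socs1, −1.13 for Ifngr1 and 3.87 for Ifi27l2a.

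Among untreated cells, KO control library 1 held more RNA of all 38 genes than any of the other 7 libraries that had no LPS+IFNγ. It was the highest control library for 22.3% of all tested genes. It lay above the highest of the other 3 control libraries by 1.07 times (Trim25) to 11.7 times (Ifit3b), with a median of 2.77. It was over 2 times that library for 27 of the 38 genes, against 1.18% of all tested genes. Ifit3 was at 36.5 CPM there, against 2.10 CPM in KO control library 2 and 1.80 and 3.30 CPM in the WT control libraries. Rtp4 was at 67.7 CPM in that library, against 7.99 CPM in KO control library 2 and 8.16 and 9.95 CPM in WT control. Oasl2, a catalytically active OAS-like protein of the mouse, was at 109 CPM, against 24.5 CPM in KO control library 2 and 17.7 and 16.0 CPM in WT control. All 3 genes had the same arrangement, with 1 library high and the remaining 3 close together. The level in that library still was only 0.257% (Mx1) to 32% (Ifitm3) of the lower KO LPS+IFNγ library.

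The ratio of KO control library 1 to KO control library 2 was above 1 for all 38 genes and ran from 1.25 (Trim25) to 17.4 (Ifit3), with a median of 3.29. Library 1 was the higher for 49.5% of all tested genes. With 1 CPM added to each value, 29 of 38 were at least 2-fold higher in library 1, against 2.11% of all tested genes. The WT control libraries lay within 2-fold of each other for 37 of 38 genes. KO control library 2 was below both WT control libraries for 17 genes, between them for 9 and above both for 12. Genes with a larger LPS+IFNγ response in WT cells had a larger ratio between the KO control libraries. With both on the log2 scale, Pearson was 0.84 and Spearman 0.85 over 38 genes that share these libraries, given as a description. Some members with large responses had few counts in KO control library 2, such as 6 for Oasl1, 9 for Mx1 and 11 for Ifit3b. The same library was over 2 times the highest other control for 15 of 46 interferon-stimulated genes outside the members, for Ddx58 and Irf7 among 18 sensors and inducers, for 1 of 10 receptor and signal transducer genes, and for 0 of 14 negative regulators. It was the highest control library for 40 of those 46 genes, 11 of the 18, 8 of the 10 and 8 of the 14. The Irf7 levels were 48.8 and 6.53 CPM in untreated KO and 7.58 and 7.58 CPM in untreated WT libraries.

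**Figure D4:**
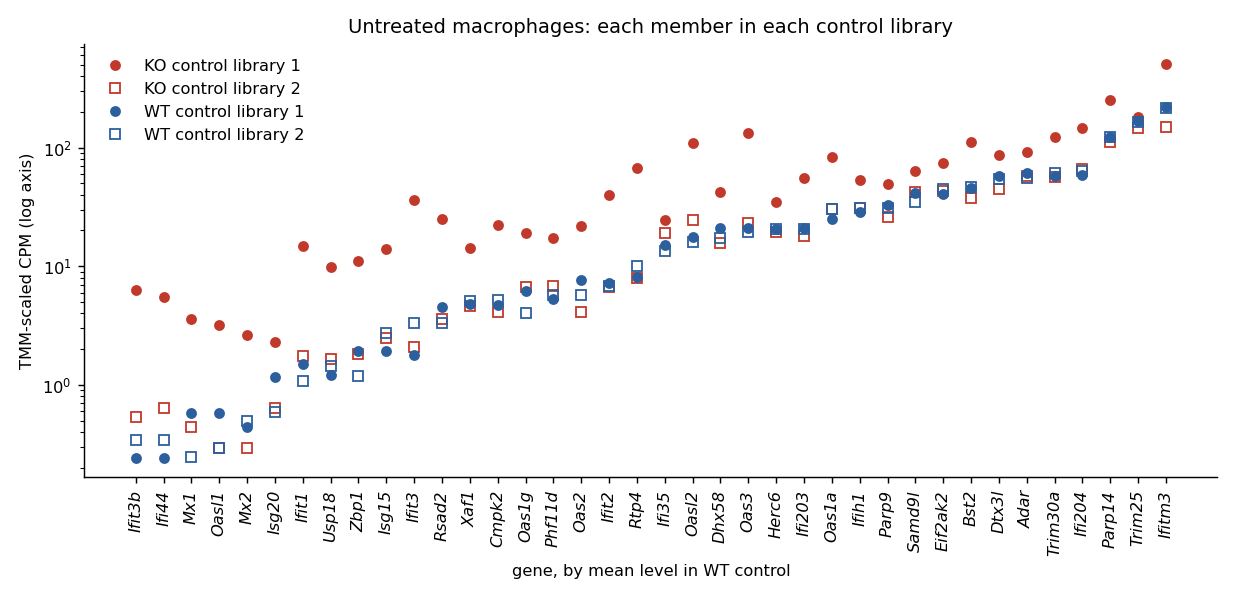
Level of each member in the 4 control libraries (TMM-scaled CPM, log axis), with genes ordered by the mean of the WT control libraries. KO control library 1 (filled red) is the highest point for all 38 genes. The other 3 libraries overlap: KO control library 2 (open red) lies below both WT libraries (blue) for 17 genes and above both for 12.

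Marker lists of other cells were summed in the same libraries. Granulocyte markers summed to 8.98 CPM there, against 0.828 CPM in KO control library 2 and 4.03 and 11.3 CPM in WT control. Plasmacytoid dendritic cell markers summed to 105 CPM, against 88.7 CPM in KO control library 2 and 94.9 and 95.2 CPM in WT control. Stromal markers summed to 352 CPM, against 852 CPM in KO control library 2 and 64.9 and 348 CPM in WT control, and the 10 macrophage markers to 20884 CPM, against 16007 to 16589 CPM in the other 3. Their part in the result was not tested.

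In the comparison of untreated KO with WT cells, 0 of 38 genes were called by edgeR, where 0.0296% of all tested genes were called higher and 0.0444% lower. The log2 fold change was positive for 37 and negative for 1, with a median of 1.0 against 0.01 over all genes, and 20 were higher and 0 lower by unadjusted p under 0.05, against 3.4% and 4.07% of all tested genes. Both KO libraries lay above both WT libraries for 12 members, against 21.6% of all tested genes. The smallest p-values were for Oasl2 (1.98 ± 0.53, SE, adjusted p = 0.522), Ifi44 (3.37 ± 0.99, 0.645), Ifit1 (2.66 ± 0.81, 0.66) and Oas3 (1.95 ± 0.61, 0.663). Without KO control library 1 the values were positive for 17 and negative for 21 genes, with a median of −0.07 and 0 called. Without KO control library 2, the KO group rested on KO control library 1 alone. The values were then 2.72 for Oasl2, 4.23 for Ifi44, 3.53 for Ifit1 and 2.75 for Oas3. DESeq2 called 1, Ifit3b (3.55, adjusted p = 0.0106), and the share of all genes it called is not given here.

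After LPS+IFNγ, edgeR called 0 of 38 genes between KO and WT cells, where 0.037% of all tested genes were called higher and 0.0222% lower, and DESeq2 called 0. By unadjusted p under 0.05 the counts were 0 higher and 0 lower, against 4.82% and 3.45% of all tested genes. The median log2 fold change was 0.06, with 25 positive and 13 negative values, and the libraries of the genotypes overlapped for 29 of 38. Both KO libraries lay above both WT libraries for 4 members and below them for 5, against 19.5% and 19.6% of all tested genes. Mx2 had the smallest p. It was at 263 and 163 CPM in KO and 381 and 349 CPM in WT LPS+IFNγ libraries (−0.78 ± 0.41, adjusted p = 0.638), so that both KO libraries lay below both WT libraries. Ifi35, a protein that pairs with NMI, was at 119.7 and 209 CPM in KO and 119 and 128 CPM in WT libraries (0.41 ± 0.23, adjusted p = 0.65). Ifit3b was at 148 and 435 CPM in KO and 146 and 146 CPM in WT libraries (1.0 ± 0.64, 0.686), and Ifih1 at 507 and 949 CPM in KO and 557 and 566 CPM in WT libraries (0.37 ± 0.29, 0.742). For these 3 genes KO LPS+IFNγ library 2 was the highest, while KO library 1 lay between the WT libraries for Ifi35, just above them for Ifit3b and below them for Ifih1.

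KO LPS+IFNγ library 2 was above library 1 for 34 of the 38 genes, and Mx2, Rtp4, Bst2 and Dhx58 went the other way. Library 1 was the higher for 48.5% of all tested genes. By at least 2-fold with 1 CPM added, library 2 was the higher for 2 members, Ifit3 and Ifit3b, against 3.05% of all tested genes. The granulocyte markers summed to 221 CPM in this library, against 39.3 CPM in KO LPS+IFNγ library 1 and 25.6 to 25.7 CPM in the WT libraries. S100a8 alone made up 220.2 CPM of this sum, against 38 CPM in KO library 1 and 24.8 and 25.2 CPM in the WT libraries. S100a9, Ngp, Ltf, Elane and Ly6g were at 0 in KO LPS+IFNγ library 2. Stromal markers summed to 695 CPM, against 272 CPM in KO library 1 and 45.1 and 177 CPM in WT libraries, and plasmacytoid dendritic cell markers to 157 CPM, against 117 CPM in KO library 1 and 108 and 117 CPM in WT libraries. Their part in the result was not tested. Without KO LPS+IFNγ library 2, 6 values were positive and 32 negative with 0 called, and the signs of Ifi35 and Ifih1 reversed. Without KO LPS+IFNγ library 1, 1 gene was called, Ifi35 (0.76, adjusted p = 0.0497).

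IL-4 was compared with control in each genotype. In KO cells 8 of 38 genes were called lower and 0 higher, where 3.34% of all tested genes were called lower and 3.52% higher. The 8 were Rtp4, Ifit1, Oasl2, Oas2, Oas3, Ifi44, Ifit3 and Ifitm3. Rtp4 was at 3.06 and 2.32 CPM in KO IL-4 libraries, against 67.7 and 7.99 CPM in KO control libraries (−3.82 ± 0.84, SE, adjusted p = 0.0292). Ifit1 was at 0.546 and 0.237 CPM after IL-4, against 14.7 and 1.75 CPM in KO control (−4.41 ± 0.98, adjusted p = 0.0306). Both IL-4 libraries lay below both control libraries for Rtp4 and Ifit1, and most of the distance was to KO control library 1. Oasl2 was at 11 and 14.3 CPM after IL-4, against 109 and 24.5 CPM in KO control (−2.39 ± 0.54, adjusted p = 0.0319). Oas2 was at 1.91 and 1.56 CPM, against 21.8 and 4.09 CPM in KO control (−2.90 ± 0.68, adjusted p = 0.0368). Ifi44 had 0 and 3 counts in the KO IL-4 libraries, at the limit of detection.

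All 38 values were negative in KO cells, with a median of −1.60, 33 were lower and 0 higher by unadjusted p under 0.05, against 12.1% and 12.4% of all tested genes, and both IL-4 libraries lay below both control libraries for 27 genes, against 23.6% of all tested genes. Without KO control library 1, 35 values were negative and 3 positive, and the median was −0.41. The calls named above were lost in that fit, where fewer of all tested genes were called as well, and the reason was not tested. Without KO control library 2, the values were −4.69 for Rtp4, −5.28 for Ifit1, −3.13 for Oasl2 and −3.68 for Oas2. Leaving out the first KO IL-4 library gave 1 call and leaving out the second gave 0. A fit of these 4 libraries alone gave 0 calls, and DESeq2 called 27. The shares of all genes called in these other fits are not given beside the counts, so the counts cannot be read against them.

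In WT cells 0 of 38 genes were called after IL-4 by edgeR or DESeq2, where 4.12% of all tested genes were called lower and 4.92% higher. The median was −0.17, with 13 positive and 25 negative values, and 1 gene was lower and 0 higher by unadjusted p under 0.05, against 12.7% and 12.8% of all tested genes. That gene was Ifitm3, at 86.9 and 101 CPM in WT IL-4 libraries, against 220.2 and 217 CPM in WT control libraries (−1.22 ± 0.50, SE, adjusted p = 0.164). Both WT IL-4 libraries of Ifitm3 lay below both control libraries, by more than the distance between the libraries of either group. When only the 4 WT libraries concerned were fitted, 4 genes were called lower, Ifitm3 (adjusted p = 0.000619), Oas2 (0.0488), Parp14 (0.0452) and Dtx3l (0.0467). Oas2 was at 2.17 and 3.83 CPM in WT IL-4 libraries, against 7.63 and 5.71 CPM in WT control (−1.14 ± 0.65 with all libraries, adjusted p = 0.319). Parp14 was at 80.6 and 102 CPM after IL-4, against 124 and 122 CPM in WT control (−0.43 ± 0.31, 0.438), and Ifi35, in the other direction, at 18.3 and 18.4 CPM, against 15.1 and 13.4 CPM in WT control (0.36 ± 0.24, 0.4). Both WT IL-4 libraries lay below both WT control libraries for 14 genes, against 33.3% of all tested genes, and above them for 3, against 30.8%.

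**Figure D5:**
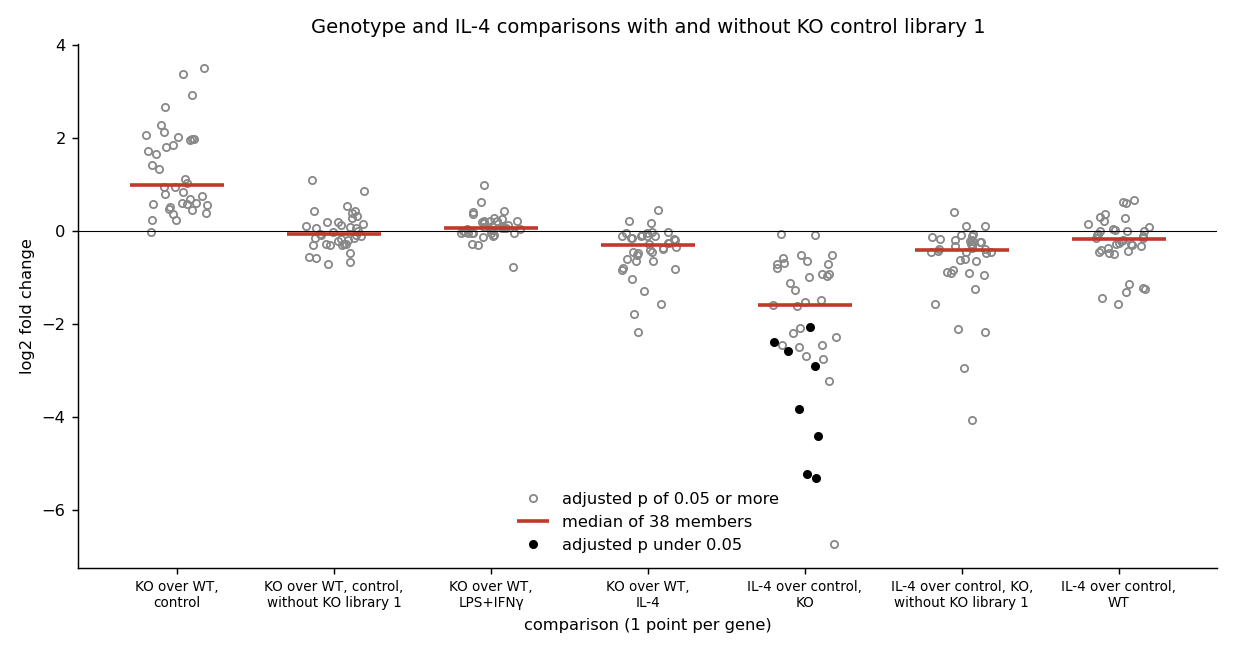
Log2 fold change of each member (1 point per gene) in the 3 comparisons of KO with WT cells and the comparisons of IL-4 with control, 2 of them repeated without KO control library 1. Red bars are medians, and filled points have an adjusted p below 0.05. The medians of 1.0 (KO over WT, control) and −1.60 (IL-4 over control, KO) move to −0.07 and −0.41 without that library. The filled points are also lost, in a fit with 1 KO control library where fewer of all tested genes were called. The lowest point for IL-4 in KO cells is Ifit3b, which had 0 and 1 counts in the KO IL-4 libraries.

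The pathway lists were also counted for IL-4 against control, where 3.52% of all tested genes were called higher and 3.34% lower in KO cells, and 4.92% higher and 4.12% lower in WT cells. Of the 46 other interferon-stimulated genes, 0 rose and 6 fell in KO and 2 rose and 1 fell in WT cells. Jak2, a kinase of the IFNγ receptor, rose in both genotypes, by 0.82 ± 0.18 in KO and 1.18 ± 0.18 in WT cells, and Irf9 fell in KO cells (−1.0 ± 0.22), both among 10 receptor and transducer genes. Tlr9, a sensor of unmethylated DNA, fell in both (−2.46 ± 0.56 in KO and −2.33 ± 0.55 in WT cells), with 0 others of 18 sensors and inducers called. Socs1 rose in both (3.60 ± 0.43 in KO and 4.14 ± 0.41 in WT cells), and of the 14 negative regulators 2 rose and 2 fell in KO and 1 rose and 0 fell in WT cells. With 1 KO control library left, fewer of all tested genes were called as well, and the reason for lost calls was not tested. Most of the KO calls were lost without KO control library 1. For that fit the filter on low counts was run again and left 14138 genes, against 13525 in the fit of all libraries. The KO values were then −0.58 for Irf9, 0.92 for Jak2, −1.42 for Tlr9 and 4.46 for Socs1.

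Under IL-4, edgeR called 0 of 38 genes between KO and WT cells, where 0.0296% of all tested genes were called higher and 0.037% lower, and DESeq2 called 0. By unadjusted p under 0.05 the counts were 0 lower and 0 higher, against 1.32% and 2.03% of all tested genes. The median was −0.31, with 3 positive and 35 negative values, and both KO libraries lay below both WT libraries for 12 genes and above them for 1, against 15.6% and 15.1% of all tested genes. Eif2ak2 was at 36.5 and 30.7 CPM in KO and 38.9 and 47.6 CPM in WT IL-4 libraries (−0.37 ± 0.22, adjusted p = 0.98). Rtp4 was at 3.06 and 2.32 CPM in KO and 4.18 and 8.78 CPM in WT IL-4 libraries (−1.28 ± 0.86, 0.98). For Zbp1 the levels were 1.20 and 1.14 CPM in KO and 2.17 and 2.60 CPM in WT IL-4 libraries (−1.03 ± 0.77, 0.98), and for Ifi204 62.3 and 49.8 CPM in KO and 67.2 and 82.0 CPM in WT IL-4 libraries (−0.41 ± 0.32, 0.98). In these 4 genes KO IL-4 libraries were lower on average, with 0 of the 4 called.

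The difference between the KO and WT responses to IL-4 gave 0 called members and 0.0% of all genes in edgeR and 0 members in DESeq2. By unadjusted p under 0.05, 11 members were lower and 0 higher, against 1.38% and 3.08% of all tested genes. All 38 values were negative, with a median of −1.31. Oasl2 (−2.43 ± 0.74), Oas3 (−2.59 ± 0.86), Zbp1 (−3.06 ± 1.01) and Rtp4 (−3.35 ± 1.13) had the smallest p-values, all with an adjusted p of 0.9999. Without KO control library 1 the values were positive for 10 and negative for 28 genes, with a median of −0.18. Without KO control library 2 they were −3.17 for Oasl2, −3.39 for Oas3, −3.87 for Zbp1 and −4.22 for Rtp4.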

How the data were processed

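RNA of 12 libraries of mouse BMDM was analysed from 1 deposited table of estimated counts per Ensembl gene, held as whole numbers. Salmon 1.10.2, R 4.4.1, DESeq2 1.45.3, FastQC 0.11.9 and the build GRCm39 are named in the submitters' processing notes. The annotation, trimming and strand setting were not given in the sources used here. Salmon-type estimates divide reads between near-identical genes. Of 55891 identifiers, 51425 (92.0%) were matched to a symbol. All 12 columns were mapped to samples by name.

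Genes with low counts were removed with edgeR's filterByExpr, which left 13525. edgeR 4.0.16 (R 4.3.3) was fitted to all 12 libraries with 1 coefficient per group, TMM scaling and the quasi-likelihood F test, two-sided, with Benjamini-Hochberg adjustment over all tested genes and a threshold of 0.05. The fit had 6 residual degrees of freedom. It was also run on simulated counts, with the same spread for every gene and no outlying library. That run therefore does not cover a library such as KO control library 1. Log2 fold changes are given ± SE, here the size of the log2 fold change divided by the square root of its F statistic. CPM uses TMM-scaled library sizes. With 1 library of a group left out, the lone library was assumed to vary like the others.

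Alternatives were DESeq2 1.42.0, DESeq2's size factors, total counts, no filter, a replicate block, only the groups compared, and each library left out in turn. The filter and scaling, where used, were run again in each, so the set of tested genes can differ between fits. Promoter windows came from RefSeq (GRCm38.p6), and gene coordinates and coding sequences from an annotation of GRCm38, a build other than that of the counts. They were matched by gene name, and no coordinates were converted.

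The 38 genes and the pathway and marker lists were chosen with earlier results of these data known. All 38 could be given fold changes for LPS+IFNγ and IL-4. In the KO against WT comparisons and the interactions, the 4 members with the smallest p and any called were named. From the pathway lists, at most 6 genes each were named, chosen from those that passed the test in a comparison. Ifnb1 and Ifnz, which were not tested, and the exceptions Ifi27l2a and Ifitm2 were named outside this rule. Of the pathway lists, 1 gene is not reported here by name.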

Additional observations from a re-analysis of the deposited data

How the results depend on the processing

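The LPS+IFNγ calls stood at 38 of 38 members in both genotypes under every alternative run, except 37 in KO cells when only the KO groups compared were fitted (Rtp4, adjusted p = 0.0516). The 8 members lower with IL-4 in KO cells became 27 with DESeq2, 33 without the low-count filter and 0 with only the groups compared, and ranged from 0 to 35 when 1 library was left out. For IL-4 in WT cells, the count of 0 became 1 without the filter and 4 with only the groups compared. For KO against WT in control, 0 became 1 with DESeq2 and 16 without the filter, and ranged from 0 to 15 when 1 library was left out. For KO against WT after LPS+IFNγ it ranged from 0 to 1 when 1 library was left out, and the log2 fold changes of Ifi35 and Ifih1 ran from −0.036 to 0.76 and from −0.14 to 0.75, reversed without KO LPS+IFNγ library 2. The LPS+IFNγ interaction gave 1 and the IL-4 interaction 5 without the filter, and both ranged from 0 to 6 when 1 library was left out. The cause was not tested. For KO against WT under IL-4 the count was 0 throughout. Here and above, most of these counts stand without the share of all genes called under the same setting. That share can differ between settings. The labels do not say what a library number marks. Same-numbered libraries deviated together with a correlation of 0.0464 to 0.337, above 0.1 in 14 of 15 pairs of groups, and the stromal marker sum was higher in library 2 in 6 of 6 groups. With only 2 numbers, pairing could be neither established nor set aside, and the fit reported has no block. The replicate block left the counts at 38, 38, 8 and 0, with 8 under DESeq2's size factors and total counts also for IL-4 in KO cells. With 2 libraries a group, leaving out 1 moved several of these counts, and 3 counts in a library, 0.138 to 0.290 CPM, limit what the least expressed members can show in control and IL-4 cells. This limit covers counting error only.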

Other observations

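Libraries of other groups also differed from each other across the members. WT IL-4 library 2 was above WT IL-4 library 1 for 34 of the 38 genes, the same count as for KO LPS+IFNγ library 2 above library 1. Of all tested genes, library 1 was the higher for 48.0% in WT IL-4 and 48.5% in KO LPS+IFNγ libraries. The median coefficient of variation between the libraries of a group, over the 38 genes, was 20.5% in KO LPS+IFNγ and 3.49% in WT LPS+IFNγ libraries, 17.3% in KO IL-4 and 16.4% in WT IL-4 libraries, and 75.4% in KO control and 7.81% in WT control libraries.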
